A study of Homo sapiens with 6 samples.

Results

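The immediate early genes FOS, JUN, JUNB, JUND, EGR1, IER2, IER5, MYC, ZFP36 and ATF3 were taken by gene symbol from a table of 16834 genes, and all 10 were listed there. The rule for membership names symbols and uses no measured value, though the names were proposed with earlier results of these data known. The values come from RNA bound to tagged ribosomes of asynchronous HEK293-T Flp-In cells, a human embryonic kidney line with a site for targeted insertion. A single copy of ccTaggedRP sat in that site, a bicistronic message under the CAG promoter that encodes Flag-RPL10a-hCdt and HA-RPL10a-hGem, both built on mouse RPL10a. The hCdt degron lowers the Flag protein late in the cycle and the hGem degron lowers the HA protein early in it, so contrasting HA-IPs and Flag-IPs asks which transcripts ribosomes carry in the later and earlier phases. The 3 Flag-IPs and 3 HA-IPs came from the same stable line, grown with serum and hygromycin and with no other treatment or sorting, and no unprecipitated RNA was analysed here.

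Immediate early genes are transcribed within minutes of a stimulus such as serum, growth factors or stress, without the need for new protein. Serum response factor and its ETS partners act at CArG boxes, CREB and ATF proteins act at cAMP response elements, and dimers of FOS and JUN proteins form AP-1. The transcripts usually decay fast, in part through AU-rich elements in the 3′ UTR, and their products help quiescent cells to enter G1 phase. Cells that already grow in serum can express these genes without a new stimulus. Whether their level was steady over time was not measured here.

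The promoter stretches of 5 members are shown here for motifs by which this class of genes is usually recognised, as far as these lie near the start. RefSeq promoters of GRCh38.p14, from 250 bases before to 50 bases after the start, were matched for 9 of the 10 genes, all but MYC. Each stretch runs 5′ to 3′ on the strand of the gene, from 210 to 11 bases before the start. Capitals mark a match on either strand to the CArG box, to TGACGTCA, to its core TGACG or to TATAAA.
EGR1 at chr5:138465269-138465468 on the plus strand: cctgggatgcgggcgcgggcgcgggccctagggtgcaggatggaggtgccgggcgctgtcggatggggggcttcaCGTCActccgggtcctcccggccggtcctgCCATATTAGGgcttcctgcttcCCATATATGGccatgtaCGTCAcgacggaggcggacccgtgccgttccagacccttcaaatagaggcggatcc
FOS at chr14:75278618-75278817 on the plus strand: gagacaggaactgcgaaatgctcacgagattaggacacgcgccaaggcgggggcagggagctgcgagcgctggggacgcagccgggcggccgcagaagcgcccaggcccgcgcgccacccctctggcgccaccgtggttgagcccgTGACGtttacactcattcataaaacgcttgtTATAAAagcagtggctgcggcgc
JUN at chr1:58784058-58784257 on the minus strand: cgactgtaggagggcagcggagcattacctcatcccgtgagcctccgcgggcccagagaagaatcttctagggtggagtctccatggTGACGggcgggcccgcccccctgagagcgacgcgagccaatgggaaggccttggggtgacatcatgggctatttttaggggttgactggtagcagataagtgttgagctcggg
JUND at chr19:18281633-18281832 on the minus strand: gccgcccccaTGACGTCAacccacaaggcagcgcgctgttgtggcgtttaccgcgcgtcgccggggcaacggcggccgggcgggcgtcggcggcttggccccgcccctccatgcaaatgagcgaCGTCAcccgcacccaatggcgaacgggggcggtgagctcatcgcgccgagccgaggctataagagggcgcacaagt
IER5 at chr1:181088490-181088689 on the plus strand: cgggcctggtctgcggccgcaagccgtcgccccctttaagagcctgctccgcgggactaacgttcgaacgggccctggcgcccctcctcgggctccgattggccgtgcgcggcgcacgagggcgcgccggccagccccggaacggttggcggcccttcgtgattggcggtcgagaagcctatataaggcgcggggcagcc

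Among the windows of the 9 genes, only that of EGR1 held a CArG box, with 2 copies that start 105 and 83 bases upstream. Of 35116 RefSeq promoters 1.29% held any in the same window. The full cAMP response element TGACGTCA stood in JUND only, 200 bases upstream, against 1.85% of all promoters. Its core TGACG, which lies within the full element, stood in 6 members (JUN, EGR1, FOS, JUNB, IER2 and JUND), against 24.6% of all promoters. TATAAA stood in 3 members, against 11.5% of all promoters. It started 33 bases upstream in FOS, 31 in JUNB and 230 at the second start of ATF3. ATF3 had more than 1 window, and the share of all promoters takes each window on its own. Only exact copies of the AP-1 sites TGAGTCA and TGACTCA, which are the same site on opposite strands, were looked for, and no variants. They stood in 0 members and in 4.95% of all promoters, and the EGR site GCGTGGGCG stood in 0 members and in 0.795%. The windows of IER5 and ZFP36 held none of these motifs. The matches describe letters in these windows and do not show binding.

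The AU-rich elements through which ZFP36 binds its targets are built from AUUUA, written ATTTA in the genome. Of 13825 3′ UTRs in canonical transcripts of GENCODE 44 (GRCh38), 73.1% held at least 1 ATTTA, with a median of 1.69 per kb. The densest 30-base windows of 3 members are shown because they carry overlapping or neighbouring copies, with ATTTA in capitals.
FOS at chr14:75282058-75282087 on the plus strand: tgtgtttttaATTTATTTAttaagatggat
IER5 at chr1:181092449-181092478 on the plus strand: tcctttATTTATTTATTTATTTAattataa
ZFP36 at chr19:39409188-39409217 on the plus strand: cctttATTTAtgacgactttATTTAttcta

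All members but IER2 held at least 1 copy, which is 9 of 10, and 7 of 10 lay above the median of all 3′ UTRs per kb. ZFP36, whose own transcript is a known target of its protein, held 5 copies in 708 bases, or 7.06 per kb. FOS held 5 copies in 806 bases, or 6.20 per kb. IER5 held the most copies, 10 in a 3′ UTR of 3014 bases, or 3.32 per kb, and MYC held 6 in 1993 bases. EGR1 and JUND held 1 copy each. Among 3′ UTRs of similar length, the share with at least as many copies was 6.24% for ZFP36 and 8.97% for FOS. It was 26.2% for JUNB, 26.9% for IER5, 34.3% for MYC, 44.1% for ATF3 and 46.3% for JUN. For JUND and EGR1 it was 67.4% and 81.2%.

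All members are protein-coding in GENCODE 44 (GRCh38). FOS (ENSG00000170345) lies at chr14:75278826-75282230, EGR1 (ENSG00000120738) at chr5:138465479-138469303 and MYC (ENSG00000136997) at chr8:127735434-127742951. JUN (ENSG00000177606) lies at chr1:58776845-58784048, IER5 (ENSG00000162783) at chr1:181088700-181092900 and ATF3 (ENSG00000162772) at chr1:212565334-212620777. Chromosome 19 holds JUNB (ENSG00000171223) at 12791486-12793315, IER2 (ENSG00000160888) at 13150411-13154911, JUND (ENSG00000130522) at 18279694-18281622 and ZFP36 (ENSG00000128016) at 39406847-39409412. The canonical transcripts of JUN, JUNB, JUND and IER5 consist of 1 exon. JUNB lies within HOOK2 on the opposite strand, MYC overlaps the antisense lncRNA CASC11, and IER2 overlaps 2 antisense lncRNAs. Whether counting used the strand is not given in the sources used here, so reads of these overlapping genes cannot be told apart.

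Each library held 23174532 to 44134833 reads on the listed genes, and the values are read counts divided by a size factor per library, called normalized counts below. Nothing in the labels says that replicates were separate cultures, so p-values measure the spread between these samples, which may be technical. The 6 markers of the HEK293 line summed to 62529 to 69038 normalized counts in the Flag-IPs, against 65866 to 67675 in the HA-IPs. Of 12 kidney epithelium markers 9 were listed, and UMOD, CDH16 and NPHS1 were not. Of these 9, 2 were called higher (EPCAM and CDH1) and 3 lower (PAX2, PAX8 and SLC34A1) in the HA-IPs. SLC34A1 had 119, 102 and 59 normalized counts in Flag-IPs 1, 2 and 3 and 1.4, 5.9 and 5.5 in HA-IPs 1, 2 and 3. The 9 markers summed to 17029 to 17337 in the Flag-IPs, against 18931 to 19235.5 in the HA-IPs. The 20 listed heart muscle markers, of 25 looked for, were all called higher in the Flag-IPs, and they summed to 213416, 155539 and 101910 normalized counts in Flag-IPs 1, 2 and 3 and to 3515, 2160 and 20192 in HA-IPs 1, 2 and 3. Of 8 listed fibroblast markers 7 were called higher in the Flag-IPs, with sums of 6340 to 8854 there and 2720 to 3362 in the HA-IPs, and of the 5 endothelial and 2 blood markers listed 3 and 1 were. The part of these markers in the values of the immediate early genes was not tested.

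All 10 genes were expressed in every library, over a 46.0-fold range of levels per kb of canonical transcript. Reads were counted per gene, and the levels were not computed with another choice of length. JUN, the AP-1 subunit that can also form dimers with itself, was the highest, with a median of 5582 normalized counts per kb over the 6 libraries, 5.18-fold above MYC at 1078. MYC, a regulator of growth and ribosome production, was 1.46-fold above IER2, a nuclear regulator, at 737 per kb. EGR1, ATF3 and IER5 followed at 607, 567 and 553 per kb. JUND, the JUN protein that is least dependent on stimulation, stood at 356 per kb, and JUNB at 242. FOS, the AP-1 partner of the JUN proteins, stood at 176 per kb and ZFP36, which binds AU-rich elements and directs mRNA decay, at 121 per kb.

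The 6 libraries of JUN and MYC did not overlap, nor did those of MYC and IER2 or of FOS and ZFP36. All other neighbours in this order had overlapping ranges, so their order is not fixed by these libraries. The plot of levels by library shows the gap between JUN and the rest and the narrow band of MYC.

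**Figure D1:**
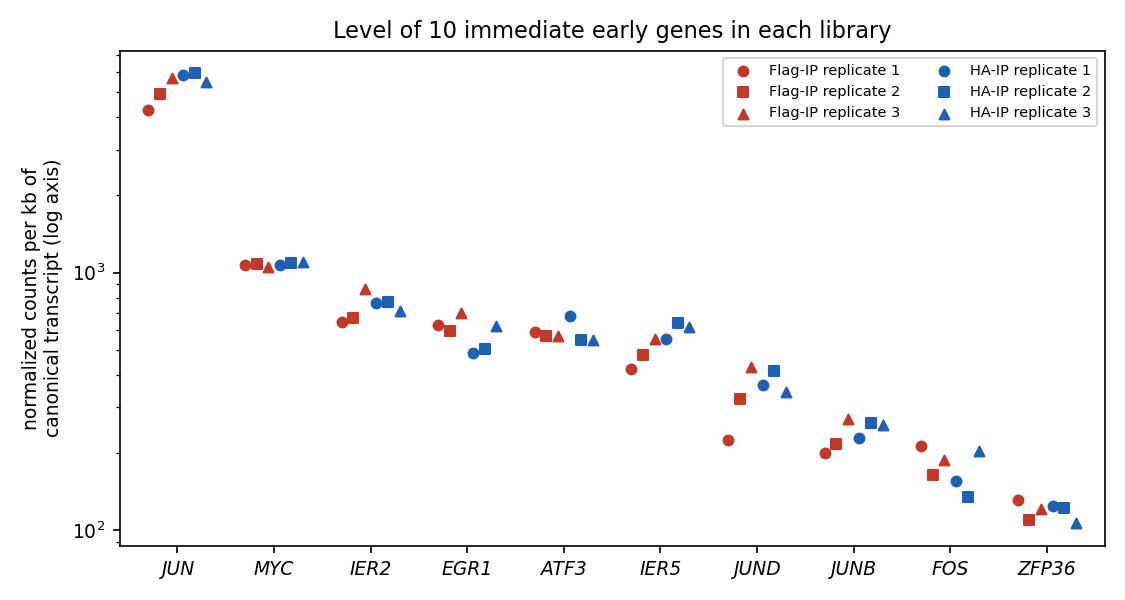
Normalized counts per kb of canonical transcript, on a log axis, for the 10 immediate early genes in 3 Flag-IPs (red) and 3 HA-IPs (blue), with 1 point per library and genes ordered by their median. JUN lies at 4263 to 5933 per kb, above all other genes, and MYC lies in the narrow band of 1050 to 1102 per kb.

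The contrast of HA-IPs and Flag-IPs left most of these genes uncalled. The intervals still reach as far as -0.52 for FOS and 0.64 for JUND on the log2 scale. Only IER5 passed the test, higher in the HA-IPs, which is 1 of 10 members by limma with a threshold of 0.05 on the adjusted p. Of all 16834 genes 12.9% passed, 5.79% as higher in the HA-IPs and 7.1% as higher in the Flag-IPs. IER5 was also the only member whose groups did not overlap, where 32.2% of all genes did not, 16.1% with the HA-IPs higher and 16.1% with the Flag-IPs higher. A count of 1 in 10 genes is too few to read against these shares of the whole table. This holds for calls in either direction, for calls toward the HA-IPs and for groups without overlap. The mean was higher in the HA-IPs for 7 members, as it was for 49% of all genes, and higher in the Flag-IPs for EGR1, FOS and ZFP36. The median log2 fold change, HA-IPs over Flag-IPs on the log2(normalized counts + 1) scale, was 0.04 over the members and -0.0049 over all genes. At an unadjusted p under 0.05 in limma were 3 members, IER5, JUN and EGR1, where 27.2% of all genes were.

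**Figure D2:**
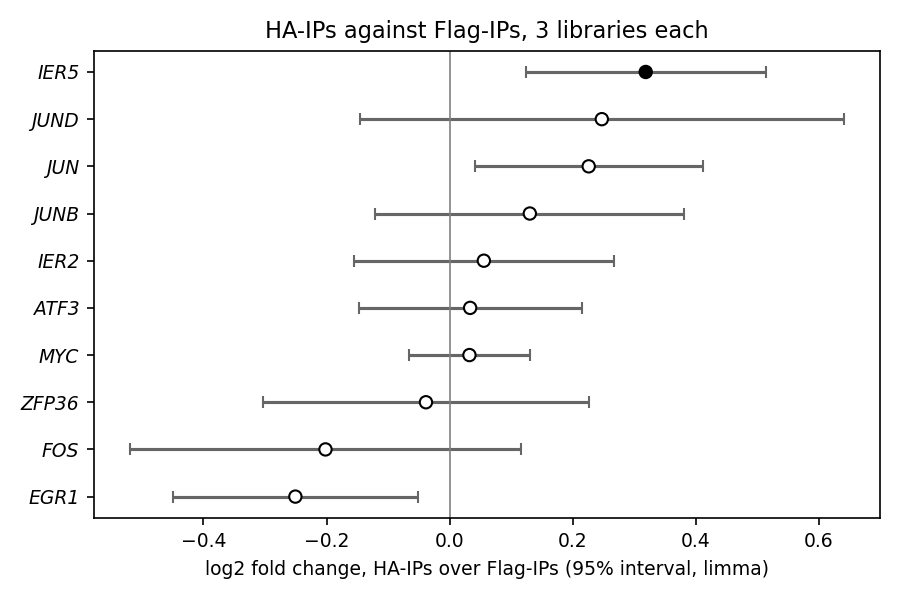
Log2 fold change for each gene, positive where the HA-IPs were higher, with its 95% interval from limma over 3 libraries per group; the filled point marks an adjusted p of at most 0.05 over all 16834 genes. Only IER5, at 0.32, is filled, while the intervals of JUN and EGR1 also lie on 1 side of 0 but did not pass after adjustment.

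IER5, whose product binds the heat shock factor HSF1 and the phosphatase PP2A, had 1775, 2009.7 and 2319 normalized counts in Flag-IPs 1, 2 and 3. It had 2324, 2677 and 2581 in HA-IPs 1, 2 and 3. Every HA-IP was above every Flag-IP, but HA-IP 1 exceeded Flag-IP 3 only by the difference between 2323.65 and 2318.86. The means were 2035 ± 273 in the Flag-IPs and 2527 ± 183 in the HA-IPs (SD, n = 3 each). On the log2 scale the difference was 0.32 (SE 0.089, 95% interval 0.12 to 0.51, adjusted p = 0.0378 in limma). With DESeq2 and edgeR on the reads IER5 also passed, at adjusted p = 0.0082 and 0.0414, where 13.5% and 12.7% of all genes passed, 6.2% and 5.35% as higher in the HA-IPs.

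The call on IER5 was lost in 5 of the 6 fits that left out a library. Without Flag-IP 3 the log2 fold change was 0.42 (adjusted p = 0.0030 in limma). Without Flag-IP 1 it was 0.22 (adjusted p = 0.0541), without Flag-IP 2 0.31 (0.130), without HA-IP 1 0.38 (0.0602), without HA-IP 2 0.28 (0.157) and without HA-IP 3 0.30 (0.113), all under limma. The direction was the same in all 6. The call was also lost with quantile normalization (0.31, adjusted p = 0.0542) and with each library scaled to the same total (0.27, adjusted p = 0.0615).

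The JUN family members JUN, JUNB and JUND had higher means in the HA-IPs, and none passed. JUN had 13884, 15996 and 18488 normalized counts in Flag-IPs 1, 2 and 3 and 19027, 19325 and 17871 in HA-IPs 1, 2 and 3. The groups overlapped because Flag-IP 3 was above HA-IP 3. Its means were 16123 ± 2305 and 18741 ± 768 (SD, n = 3 each), with a log2 fold change of 0.23 (95% interval 0.041 to 0.41, adjusted p = 0.107 in limma). Without Flag-IP 3 the difference in JUN was 0.33 and passed (adjusted p = 0.0030 in limma), without Flag-IP 1 it was 0.12 (adjusted p = 0.229), and after removal of GC content and length trends it was 0.23 and passed (adjusted p = 0.0410). The SD of JUN was 14.3% of its mean in the Flag-IPs and 4.10% in the HA-IPs, where the 10691 reads of the shallowest library would give a counting SD of 0.967%.

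JUND had 434, 626 and 831 normalized counts in Flag-IPs 1, 2 and 3, and 710, 802 and 664 in HA-IPs 1, 2 and 3. Flag-IPs 1 and 3 were the lowest and the highest of all 6 libraries, 1.92-fold apart, so the HA-IPs lay inside the range of the Flag-IPs. The log2 fold change of JUND was 0.25 (95% interval -0.15 to 0.64, adjusted p = 0.422 in limma). It was 0.0032 without Flag-IP 1 and 0.47 without Flag-IP 3, where it passed (adjusted p = 0.0358 in limma). JUND has the most GC-rich transcript of the members, 69.9% against 48.8% to 64.9% in the others. Once GC content and length trends had been taken out, JUND stood at 528, 640 and 759 in the Flag-IPs, against 674, 730 and 664 in the HA-IPs, and its fold change fell to 0.12 (adjusted p = 0.533).

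JUNB, which often restrains JUN, had 365, 395 and 493 normalized counts in Flag-IPs 1, 2 and 3. It had 418, 477 and 468 in HA-IPs 1, 2 and 3, so Flag-IP 3 was the highest library and the groups overlapped. The log2 fold change of JUNB was 0.13 (95% interval -0.12 to 0.38, adjusted p = 0.516 in limma), and it ran from 0.039 without Flag-IP 1 to 0.26 without Flag-IP 3.

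IER2 showed the same low values in Flag-IPs 1 and 2 and a high value in Flag-IP 3, at 1362, 1408 and 1823 normalized counts, with 1614, 1624 and 1497 in the HA-IPs. All HA-IPs of IER2 lay between Flag-IPs 2 and 3. Its log2 fold change was 0.06 (95% interval -0.16 to 0.27, adjusted p = 0.765 in limma), and it was -0.02 without Flag-IP 1 and 0.19 without Flag-IP 3.

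Flag-IP 1 was the lowest of the 6 libraries in 5 of the 10 members (JUN, JUNB, JUND, IER2 and IER5), where it was the lowest in 23.1% of all genes. It was also the highest library for FOS and ZFP36. Flag-IP 1 was the shallowest library and had the highest sum of heart muscle markers. With GC content and length trends removed, Flag-IP 1 stayed the lowest library for JUN, JUND and IER5, while JUNB had 391 there and 388 in Flag-IP 2, and IER2 had 1435 and 1377. The part of depth and of the heart muscle markers in this was not tested.

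**Figure D3:**
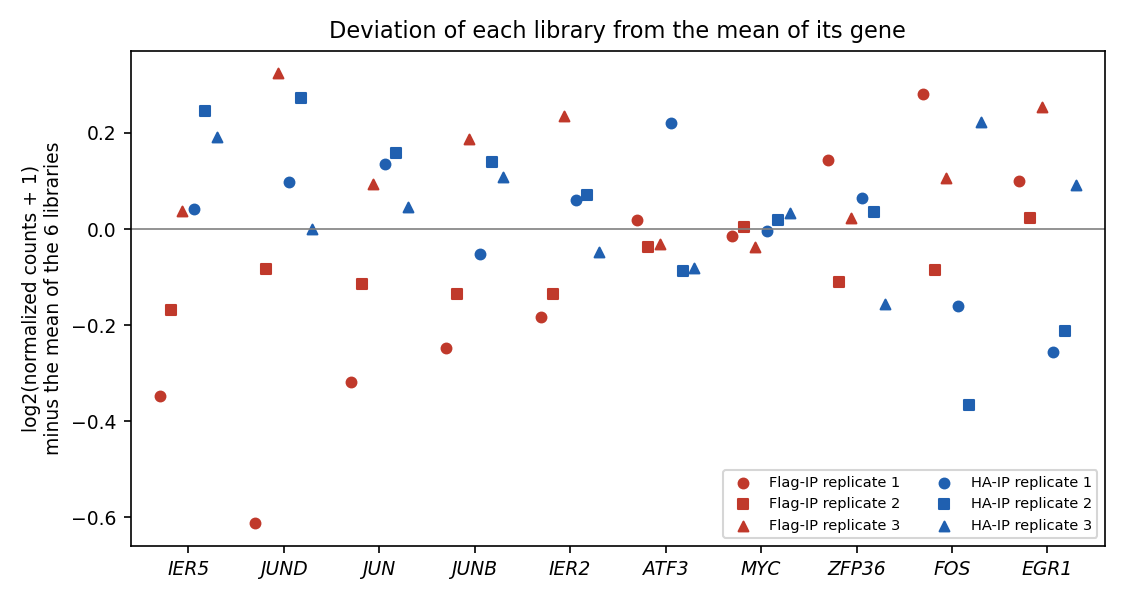
Deviation of each library from the mean of its gene, as log2(normalized counts + 1) minus the mean over 6 libraries, with Flag-IPs in red and HA-IPs in blue and replicates 1, 2 and 3 as circles, squares and triangles. The red circle of Flag-IP 1 is the lowest point for IER5, JUND, JUN, JUNB and IER2, and all points of MYC lie close to 0.

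EGR1 and FOS had higher means in the Flag-IPs, and neither passed. EGR1, a zinc finger factor and the member with CArG boxes in the promoter stretch shown above, had 1962, 1859 and 2181 normalized counts in Flag-IPs 1, 2 and 3. It had 1533, 1581 and 1949.55 in HA-IPs 1, 2 and 3, so HA-IPs 1 and 2 lay below every Flag-IP and HA-IP 3 lay above Flag-IP 2. The log2 fold change of EGR1 was -0.25 (SE 0.091, 95% interval -0.45 to -0.052, adjusted p = 0.0958 in limma). Without HA-IP 3 it was -0.36 and passed (adjusted p = 0.0214 in limma), and with each library scaled to the same total it was -0.30 and passed (adjusted p = 0.0414).

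FOS had 445, 346 and 395 normalized counts in Flag-IPs 1, 2 and 3 and 328, 284 and 428 in HA-IPs 1, 2 and 3. Here too HA-IPs 1 and 2 were below every Flag-IP, and HA-IP 3 was the second highest of all libraries. The log2 fold change of FOS was -0.20 (95% interval -0.52 to 0.12, adjusted p = 0.418 in limma), and it was -0.36 without HA-IP 3 (adjusted p = 0.123), -0.069 without HA-IP 2 (adjusted p = 0.834) and -0.11 without Flag-IP 1 (adjusted p = 0.676). With 287 to 465 reads per library, counting alone would give FOS an SD of up to 5.90%, against SDs of 12.6% in the Flag-IPs and 21.2% in the HA-IPs. HA-IP 3, the highest HA-IP for FOS and EGR1, also held the most heart muscle marker counts among the HA-IPs, at 20192, and the part of these in its FOS and EGR1 values was not tested.

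Read against JUN in the same library, which needs no scaling between libraries, FOS and EGR1 took different places. This ratio was chosen after the values were seen and was given no test. JUN itself leaned to the HA-IPs (log2 fold change 0.23) and EGR1 to the Flag-IPs (-0.25), so their ratio joins both differences. EGR1 alone overlapped between the groups, and the share of all gene pairs without overlap was not computed. EGR1 had 141, 116 and 118 reads per 1000 JUN reads in Flag-IPs 1, 2 and 3 and 80.6, 81.8 and 109 in HA-IPs 1, 2 and 3, so every HA-IP was below every Flag-IP. FOS had 32.1, 21.6 and 21.4 reads per 1000 JUN reads in the Flag-IPs, against 17.2, 14.7 and 23.9 in the HA-IPs, where HA-IP 3 lay above Flag-IPs 2 and 3. JUN made up 54.3% to 60.4% of the reads on the 10 genes, and the 10 genes made up 0.0850% to 0.103% of all reads.

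**Figure D4:**
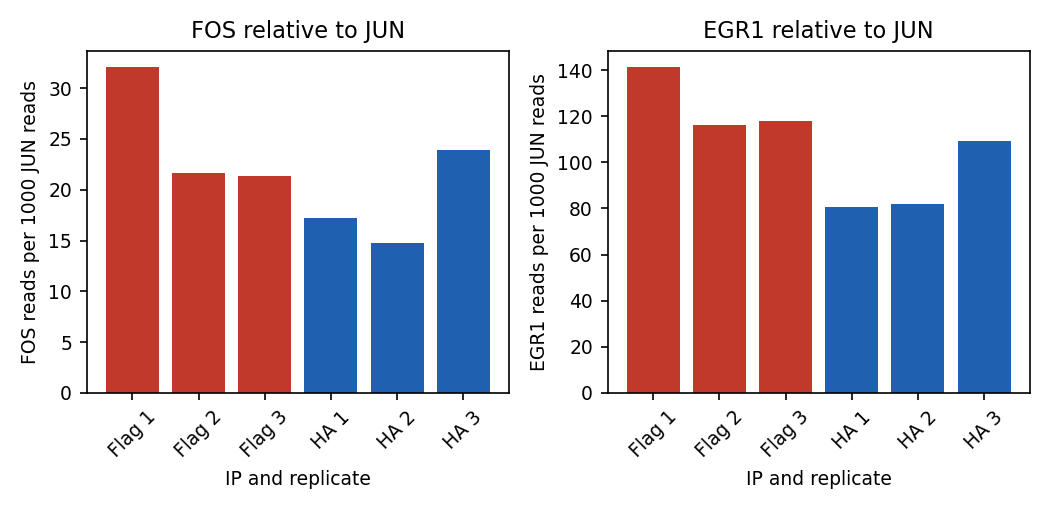
Reads of FOS (left) and EGR1 (right) per 1000 JUN reads in each of the 3 Flag-IPs (red) and 3 HA-IPs (blue), as bars from 0 with 1 bar per library. The EGR1 bars of the HA-IPs, at most 109, are all below those of the Flag-IPs, at least 116, while FOS in HA-IP 3, at 23.9, is above Flag-IPs 2 and 3. JUN itself had a higher mean in the HA-IPs.

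MYC, ZFP36 and ATF3 had intervals on both sides of 0. MYC had 3971, 4021 and 3906 normalized counts in Flag-IPs 1, 2 and 3 and 3999.5, 4066 and 4102 in HA-IPs 1, 2 and 3. Its SD was 1.44% of the mean in the Flag-IPs, against 1.28% in the HA-IPs, close to the counting SD of 1.81% that its 3058 reads in the shallowest library would give. The log2 fold change of MYC was 0.03, with an interval of -0.07 to 0.13 (0.955-fold to 1.10-fold, adjusted p = 0.704 in limma), which was the narrowest of the members, and its sign turned under both other scalings, to -0.0076 with quantile normalization and -0.02 with equal totals.

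ATF3, a stress-responsive repressor that ATF4 also induces, had 1143, 1098 and 1103 normalized counts in Flag-IPs 1, 2 and 3. It had 1314, 1061 and 1065 in HA-IPs 1, 2 and 3, so HA-IP 1 was the highest and the other HA-IPs were the lowest of the 6 libraries. Its log2 fold change was 0.03 (95% interval -0.15 to 0.21, adjusted p = 0.84 in limma), and it was -0.07 without HA-IP 1 and -0.02 with each library scaled to the same total. ZFP36 had 230, 192 and 211 normalized counts in Flag-IPs 1, 2 and 3 and 217, 213 and 186 in HA-IPs 1, 2 and 3, with overlapping groups. The log2 fold change of ZFP36 was -0.04 (95% interval -0.30 to 0.23, adjusted p = 0.877 in limma), and it was 0.07 with quantile normalization. ZFP36 had the fewest reads of the members, down to 169 in a library, for which counting alone gives an SD of 7.69%.

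**Figure D5:**
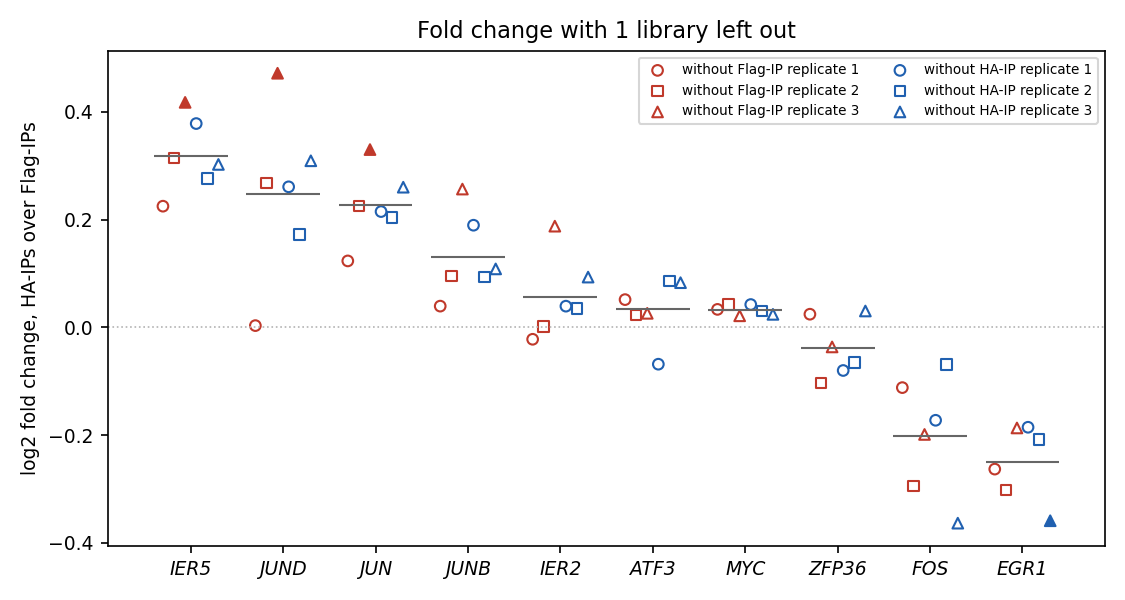
Log2 fold change for each gene with 1 library left out, positive where the HA-IPs were higher, with 1 point per omitted library, a bar for the value from all 6 libraries and filled points where limma gave an adjusted p up to 0.05. IER5 keeps a positive value between 0.22 and 0.42 but is filled only without Flag-IP 3, and JUND spans 0.0032 to 0.47.

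The other genes of the pathway were read from lists of symbols, with counts of called genes and the median of each list and no test of the list. Of 48 other immediate and delayed early genes in the table, 5 were called, 2 of them higher in the HA-IPs, 10.4% against 12.9% of all genes, with a median log2 fold change of -0.0086. The 5 called became 1 without Flag-IP 2 and 2 without HA-IP 1 or without HA-IP 2, and 3 without HA-IP 3. CCN1, a matrix protein, was higher in the HA-IPs by 0.36 (adjusted p = 0.0131 in limma), and MCL1, an inhibitor of apoptosis, by 0.27 (adjusted p = 0.0172). ID2, an inhibitor of basic helix-loop-helix factors, differed by -0.66 (adjusted p = 0.0032 in limma), BTG1, an antiproliferative gene, by -0.41 (adjusted p = 0.0118) and SRF, the factor that binds CArG boxes, by -0.17 (adjusted p = 0.0407). ID2 had 1645, 1354 and 1159 normalized counts in Flag-IPs 1, 2 and 3 and 869, 824 and 912 in HA-IPs 1, 2 and 3, with no overlap.

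Upstream of the members, 9 of 25 serum response and MAPK regulators were called, 36% against 12.9% of all genes, and these split into 4 with higher and 5 with lower values in the HA-IPs. Of this list 0 were called without Flag-IP 2, 3 without HA-IP 1 and 5 without HA-IP 2 or without HA-IP 3, and 0 in limma without the trend. The paralogs MAP2K1 and MAP2K2 lay on opposite sides. The kinase MAP2K1 was higher in the HA-IPs, by 0.24 (adjusted p = 0.0132 in limma), and its paralog MAP2K2 was higher in the Flag-IPs, at -0.31 (adjusted p = 0.0075). MAPK3 was higher in the Flag-IPs, at -0.19 (adjusted p = 0.0359 in limma), but did not pass after removal of GC content and length trends (adjusted p = 0.137). Also called were the kinases MAPK14 (0.26) and RPS6KA5 (0.27), higher in the HA-IPs, and ARAF (-0.28), the ETS factor ELK1 (-0.27) and SRF, higher in the Flag-IPs.

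Of 22 AP-1 and ATF/CREB genes, listed by family and not by shown dimers with the members, 3 were called, 13.6% against 12.9% of all genes. These were ATF6B (0.24), higher in the HA-IPs, and MAF (-0.67) and CREB3 (-0.38), higher in the Flag-IPs, and the median of the list was -0.12. The FOS relatives FOSB, FOSL1 and FOSL2 and the JUN partner ATF4 did not pass (adjusted p from 0.252 to 0.803 in limma). In the EGR and NAB list 0 of 4 genes were called in limma, 0 in DESeq2 and 0 had an unadjusted p under 0.05. Of 12 MYC network genes 2 were called, 16.7% against 12.9% of all genes. MLX (-0.25) and MXD4 (-0.22), which encode factors of the MAX network, were called higher in the Flag-IPs and 0 in the HA-IPs. The median of this list was -0.15, and MAX itself had -0.23 (adjusted p = 0.0845 in limma). Of 20 MYC target genes 5 were called, 25% against 12.9% of all genes. TFRC (0.27), CAD (0.23) and POLR1B (0.19) were higher in the HA-IPs and CDK4 (-0.23) and HSPE1 (-0.57) higher in the Flag-IPs. HSPE1 was highest in Flag-IP 1, with 1282 normalized counts there and 787 and 772 in the other Flag-IPs. It was -0.33 without that library and still passed (adjusted p = 0.0423 in limma), but did not pass in DESeq2 (adjusted p = 0.152). With a library left out, the called AP-1 and ATF/CREB genes numbered 2 to 5 (5 without Flag-IP 3). Called MYC network genes then numbered 0 to 5 (0 without Flag-IP 2, HA-IP 1 or HA-IP 3, 5 without Flag-IP 3). Called MYC targets numbered 1 to 6 (1 without HA-IP 2, 2 without Flag-IP 2, HA-IP 1 or HA-IP 3).

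Relatives of ZFP36 moved in opposite directions. ZFP36L1 was higher in the Flag-IPs, with 1931, 1686 and 1496 normalized counts there and 1201, 1239.97 and 1168 in the HA-IPs, a log2 fold change of -0.50 (adjusted p = 0.0041 in limma). ZFP36L2 was higher in the HA-IPs, with 2154, 2436 and 3001 normalized counts in the Flag-IPs, against 3236, 3131 and 3079 in the HA-IPs, a log2 fold change of 0.33 (adjusted p = 0.0436 in limma), though it did not pass with quantile normalization (adjusted p = 0.0674) or equal totals (adjusted p = 0.0722). In the list of ZFP36 relatives and factors that bind AU-rich elements or decay mRNA, 7 of 18 were called, 38.9% against 12.9% of all genes, also the decapping factor DCP1A (0.24) and the exonuclease XRN1 (0.21), higher in the HA-IPs, besides CNOT7 (-0.46), CNOT2 (-0.25) and TIAL1 (-0.20), lower there. Of this list 1 was called without Flag-IP 2, 2 without HA-IP 1, 3 without HA-IP 2 and 4 without HA-IP 3, and 0 in limma without the trend. Of 12 ATF4 and integrated stress response genes 2 were called, 16.7% against 12.9% of all genes. PHGDH (0.19) was called in the HA-IPs and VLDLR (-0.38) in the Flag-IPs, with 0 called without Flag-IP 2 and 1 without each HA-IP in turn. The 33 called genes that the rule for naming selected, IER5 included, kept their sign under quantile normalization and equal totals, where 26 and 25 passed. With a library left out, 28, 6 and 32 of the 33 passed without Flag-IPs 1, 2 and 3 and 12, 14 and 17 without HA-IPs 1, 2 and 3, and 1 passed in limma without the trend.

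For IER5, the member with the smallest adjusted p, the genes with the most similar pattern over the 6 libraries were POLR1A, LOXL1 and ZC3H18, with Pearson's r of 0.997, 0.997 and 0.996 on the log2 scale. For JUN, the member with the highest level, they were PNPLA2, SREBF1 and MCAT, with r of 0.997, 0.996 and 0.995. These are descriptions over 6 libraries among 11634 genes searched, of which 327 reached an r of 0.95 with IER5 and 264 with JUN, and the libraries share depth and IP. All of these genes had their lowest value in Flag-IP 1.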

How the data were processed

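Poly(A) RNA of 3 Flag-IPs and 3 HA-IPs was sequenced from HEK293-T Flp-In cells, and samples were grouped by the tag in their titles. Per the labels and the methods of the study, the authors used Trimmomatic 0.36 for trimming, STAR 2.5.2b for mapping to GRCh38 and featureCounts of Subread 1.5.2 for counting, and left out genes with few reads. The deposited unit is a signal, namely reads per gene after division of each library by its DESeq2 size factor. The table's log2 fold change and adjusted p-value columns hold the authors' own deposited comparison and were not used. Whole reads were recovered for 100% of values within 0.01 of a read, and every gene had at least 10 reads in 3 libraries. Of 16834 genes, 1857 had no symbol and 16683 (99.1%) had a gene model.

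The 10 members and all gene lists were chosen with earlier results of these data known. HA-IPs and Flag-IPs were contrasted in limma 3.58.1 (R 4.3.3) on log2(value + 1), a pseudocount of 1, with a variance trend, a two-sided test and Benjamini-Hochberg adjustment over all genes. "Called" and "passed" mean an adjusted p of at most 0.05. This scale understates changes of genes with few reads. Motifs and windows were searched in RefSeq and GENCODE 44 sequence with Python 3.11.15. Named are the 10 members, called genes of each list whose mean reached 100 normalized counts (at most 4 per direction by adjusted p), and the 3 genes most like the member with the smallest adjusted p and the one with the highest level. FOSB, FOSL1, FOSL2, ATF4, MAX and the library values given for list genes fall outside this rule and were chosen with their values in view. The numbers of reads put the counting SD of the members at 0.967% to 7.69% in the library with the fewest reads, so the 3 libraries per group limit precision more than depth does for most of them. Alternatives were pseudocounts of 0.1 and 10, a filter at a mean of 50 normalized counts, equal totals, quantile normalization, edgeR 4.0.16 and DESeq2 1.42.0 on the recovered reads, no trend in limma, a replicate block, omission of each library in turn, an adjusted p of at most 0.01, and removal of GC content and transcript length trends (natural splines of 5 degrees of freedom, MASS 7.3.60.0.1). The tests were tried on simulated data. A gene of the lists that the rule selected is not reported here.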

Additional observations from a re-analysis of the deposited data

How the results depend on the processing

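The number of members called was 1. It was 0 with quantile normalization, 0 in limma without the trend, 0 at an adjusted p of at most 0.01, 2 with the replicate number as a block (IER5 and EGR1, adjusted p = 0.0246 and 0.0395), 2 with GC content and length trends removed (IER5 and JUN) and 0 to 3 with a library left out. With equal totals it was also 1, but the gene was EGR1 and not IER5. The 2171 genes called over the whole table became 188 without the trend, 704 at an adjusted p of at most 0.01, 1662 with the replicate block, 1708 with quantile normalization, 2587 with GC content and length trends removed and 620 to 3059 with a library left out, with 620 without Flag-IP 2, 780 without HA-IP 1, 900 without HA-IP 2 and 1216 without HA-IP 3, where fewer samples enter the fit. Fold changes turned sign with quantile normalization for MYC (-0.0076) and ZFP36 (0.074), with equal totals for MYC (-0.021) and ATF3 (-0.019), and with GC content and length trends removed for ZFP36 (0.040). With a library left out they turned for IER2 (range -0.022 to 0.19, the lowest without Flag-IP 1), ZFP36 (range -0.10 to 0.030, with 0.024 without Flag-IP 1 and the highest without HA-IP 3) and ATF3 (range -0.068 to 0.086, the lowest without HA-IP 1). The cause was not tested. Over 17 alternatives, the fold changes of the 10 members kept direction and side of the threshold in 146 cases, turned in 9, came to pass in 6 and no longer passed in 9, and IER5 passed in 8 of the 16 that keep the threshold of 0.05. Same-numbered Flag-IPs and HA-IPs did not deviate together (r of -0.16, 0.03 and -0.31 for numbers 1, 2 and 3 over 13141 genes). The highest r were 0.30 for Flag-IP 1 with HA-IP 3 and 0.25 for Flag-IP 3 with HA-IP 2. Only for Flag-IP 2 was the sample with the closest deviation the one of the same number, at 0.03. Deviations from a group mean also hold differences that arise within each IP, so they cannot tell whether same-numbered samples shared a culture or lysate.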
